A study of Mus musculus with 19 samples.

Results

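Voltage-gated sodium channels open on depolarisation and carry the inward current of the action potential. Each channel is built on 1 large pore-forming alpha subunit, which binds tetrodotoxin in most neuronal channels, and on smaller beta subunits, which have a single membrane span, adjust gating and link the channel to the cell surface and to its anchors. The alpha and beta genes described here were 8 in number: the alpha genes Scn1a, Scn2a1 (the older symbol of Scn2a, used in the expression files), Scn3a, Scn8a and Scn9a, and the beta genes Scn2b, Scn3b and Scn4b. They were taken by gene name from the expression files, where all 8 were found among 24058 names. Tetrodotoxin (TTX) acts on the alpha subunits and does not bind the beta subunits, so the name of tetrodotoxin targets fits the 5 alpha genes.

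The cells were hippocampal neurons from mice of embryonic day 17, kept for 10 days in culture. RNA was sequenced from 3 libraries of neurons given TTX, which silences firing, 3 of neurons given bicuculline with 4-aminopyridine (Bic/4AP) for 3 h, and 3 of untreated neurons. Bicuculline blocks GABA type A receptors and 4-aminopyridine blocks voltage-gated potassium channels, and together they raise firing. RNA and chromatin samples came from ICR mice. The acetylated histone H3K27ac, a mark of active promoters and enhancers, was mapped in 2 Bic/4AP and 2 untreated samples, and H3K4me1, a mark common at enhancers, in 2 untreated samples. Bisulfite sequencing, which reads cytosine methylation, had 1 library each of TTX, Bic/4AP and untreated neurons, from C57BL/6 mice. Neither the duration of TTX nor whether the libraries came from separate cultures is given in the sources used here. A p-value therefore sets a difference between groups against the spread between libraries of a group, which may be technical only.

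Library sizes recovered from the expression values were 12.6, 11.9 and 9.68 M reads with TTX, 4.52, 4.59 and 4.34 M with Bic/4AP and 5.63, 9.97 and 5.74 M in untreated neurons. Fos, Arc, Npas4 and Bdnf, genes induced by firing, rose with Bic/4AP against both other states. With TTX against untreated they did not move together: Arc fell by 0.91 on the log2(RPKM + 1) scale (adjusted p = 0.000137, limma), Fos rose by 0.61 (adjusted p = 0.00111), Bdnf rose by 0.24 (adjusted p = 0.00299) and Npas4 did not pass (-0.25, adjusted p = 0.0796). The 8 choroid plexus markers, which belong to the epithelium next to the hippocampus, summed to 18.0 to 23.2 RPKM with TTX, 36.5 to 41.7 with Bic/4AP and 404 to 607 in untreated libraries, and all 8 fell in both treated groups. The 8 neuronal markers, tested and present in every state, summed to 561 to 630 RPKM with TTX, 973 to 1003 with Bic/4AP and 618 to 756 untreated. The 8 astrocyte markers summed to 114 to 141 RPKM with TTX, 117 to 147 with Bic/4AP and 71.2 to 88.6 untreated. Interneuron markers (8 genes) summed to 352 to 397 RPKM with TTX, 567 to 588 with Bic/4AP and 297 to 340 untreated. Peripheral sensory neuron markers (6 genes, of which Prph and Calca were high enough to be tested) summed to 19.1 to 21.1 RPKM with TTX, 11.02 to 12.9 with Bic/4AP and 4.48 to 8.52 untreated. Oligodendrocyte lineage markers (8 genes) summed to 43.0 to 52.1 RPKM with TTX, 22.2 to 28.7 with Bic/4AP and 23.0 to 29.7 untreated. Markers of vessels and fibroblasts (8 genes) summed to 43.3 to 51.6 RPKM with TTX, 32.7 to 42.1 with Bic/4AP and 23.2 to 31.1 untreated, and those of progenitors (6 genes) to 30.3 to 36.3 with TTX, 30.1 to 34.4 with Bic/4AP and 15.3 to 20.2 untreated. Microglial markers summed to 7.30 to 13.1 RPKM in the 9 libraries. Sox10, Cldn5 and Eomes were at 0 in all Bic/4AP libraries, which were the shallowest of the 9. The part of these differences in the results below was not tested. In RNA from whole cultures, fewer cells of a type and less RNA per cell cannot be told apart.

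The sequences around 5 annotated starts are shown because the chromatin results turn on them. Starts 1 and 2 of Scn2a1, start 1 of Scn8a and the start of Scn2b carried H3K27ac peaks. Scn2a1 start 2 lacked one in 1 of the untreated samples, and the start of Scn4b carried none. The sequences are from RefSeq, build GRCm38.p6, each with 250 bases before and 50 after the start. They run 5′ to 3′ on the gene's strand, which is the plus strand for all of them. Capitals mark the CG dinucleotides of the sequence. Those listed in all 3 bisulfite libraries were 1 of 3 for Scn2a1 start 1 and 8 of 9 for its start 2. They were 30 of 38 for Scn8a start 1, 25 of 26 for Scn4b and 2 of 2 for Scn2b.
Scn2a1 start 1, chr2:65620519-65620818: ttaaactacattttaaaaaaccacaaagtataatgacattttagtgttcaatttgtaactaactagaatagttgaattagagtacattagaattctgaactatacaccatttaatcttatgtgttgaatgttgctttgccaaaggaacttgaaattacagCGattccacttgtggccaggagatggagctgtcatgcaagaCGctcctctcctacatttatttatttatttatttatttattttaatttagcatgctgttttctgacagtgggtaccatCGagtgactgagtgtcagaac
Scn2a1 start 2, chr2:65668436-65668735: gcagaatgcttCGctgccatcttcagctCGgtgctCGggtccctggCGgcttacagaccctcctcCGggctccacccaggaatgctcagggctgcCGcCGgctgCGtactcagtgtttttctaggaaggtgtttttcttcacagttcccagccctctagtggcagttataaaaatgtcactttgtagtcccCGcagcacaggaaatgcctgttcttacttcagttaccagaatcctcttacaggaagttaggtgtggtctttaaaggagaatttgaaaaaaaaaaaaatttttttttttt
Scn8a start 1, chr15:100870395-100870694: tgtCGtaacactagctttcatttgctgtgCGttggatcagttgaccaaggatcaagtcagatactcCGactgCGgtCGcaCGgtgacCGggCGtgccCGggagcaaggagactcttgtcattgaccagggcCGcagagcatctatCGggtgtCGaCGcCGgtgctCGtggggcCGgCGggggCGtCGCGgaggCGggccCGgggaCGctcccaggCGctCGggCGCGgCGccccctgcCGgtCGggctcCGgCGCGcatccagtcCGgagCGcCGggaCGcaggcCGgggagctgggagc
Scn2b, chr9:45117626-45117925: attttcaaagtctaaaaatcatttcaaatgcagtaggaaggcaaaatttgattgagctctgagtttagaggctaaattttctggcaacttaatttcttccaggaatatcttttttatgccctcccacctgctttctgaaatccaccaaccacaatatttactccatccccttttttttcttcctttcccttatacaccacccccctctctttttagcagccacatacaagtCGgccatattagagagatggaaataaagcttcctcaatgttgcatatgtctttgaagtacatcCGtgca
Scn4b, chr9:45138374-45138673: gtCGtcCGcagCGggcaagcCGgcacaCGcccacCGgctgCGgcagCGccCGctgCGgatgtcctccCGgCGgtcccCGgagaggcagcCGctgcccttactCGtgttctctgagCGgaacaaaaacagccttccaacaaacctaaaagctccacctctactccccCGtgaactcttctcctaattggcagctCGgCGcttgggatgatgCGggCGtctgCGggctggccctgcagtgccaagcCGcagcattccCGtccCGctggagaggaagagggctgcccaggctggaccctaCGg
The 5 windows differed widely in CG content. The windows of Scn8a start 1 and Scn4b held 38 and 26 CG dinucleotides, and their G and C content was 70% and 66.3%. The windows of Scn2b, Scn2a1 start 1 and Scn2a1 start 2 held 2, 3 and 9, with a G and C content of 38.3%, 33% and 47.7%. In none of the 8 member windows in the table, which also cover Scn1a, Scn9a and a further start of Scn8a, was there a match on either strand to TGACGTCA (the cAMP response element, present in 1.79% of all 32851 windows of this length), to TGACG, which the longer element contains (20.8%), to TGANTCA (the AP-1 element, 7.81%), to CACGTG (an E-box, 7.15%) or to GGGCGG (the GC box, 35.7%).

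Expression was deposited as RPKM, reads scaled to gene length and library size, so that levels of different genes are compared per length. The upper end of this scale was low: the highest value in a library was 123 to 459 RPKM, and the densest gene of 1 kb or more held 0.968 to 1.42 reads per base. Whether duplicate reads were removed is not stated in the sources used here, and levels, shares and ratios of the more abundant genes would be understated if they were. A saturation correction for that case, chosen after seeing the data, called 6, 4 and 6 members in the 3 comparisons below, as the values as deposited did. In all 3 states Scn2a1, the alpha gene of young excitatory axons and their initial segments, had the highest level of the 8 genes and Scn3b the next. Scn2a1 reached 44.7, 46.6 and 49.3 RPKM with TTX, 66.9, 66.2 and 64.0 RPKM with Bic/4AP and 59.3, 52.8 and 55.5 RPKM in untreated libraries. The 3 groups did not overlap, with Bic/4AP on top and TTX lowest. Scn8a, the alpha gene of mature initial segments and nodes of Ranvier, had 25.4, 26.1 and 25.1 RPKM with TTX, 19.8, 21.1 and 21.3 RPKM with Bic/4AP and 39.6, 34.9 and 43.1 RPKM in untreated libraries. Both treated groups lay wholly below the untreated one, and Bic/4AP wholly below TTX. Scn1a, the alpha gene prominent in fast-spiking inhibitory neurons, had 18.9, 19.8 and 18.8 RPKM with TTX, 23.1, 22.4 and 24.1 RPKM with Bic/4AP and 25.1, 24.9 and 25.3 RPKM in untreated libraries. Its groups stood apart in that order. Scn3a, an alpha gene of embryonic and newborn brain, had 20.1, 20.7 and 20.2 RPKM with TTX, 22.3, 24.0 and 20.3 RPKM with Bic/4AP and 25.7, 26.4 and 24.7 RPKM in untreated libraries. The lowest Bic/4AP library lay among the TTX libraries, and both groups lay below the untreated one. Scn9a, best known from pain-sensing peripheral neurons, was low here, at 2.42, 2.66 and 2.78 RPKM with TTX, 3.44, 3.88 and 3.34 RPKM with Bic/4AP and 4.59, 4.18 and 4.24 RPKM in untreated libraries. Its groups did not overlap either.

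The beta genes differed from each other in their order across the states. Scn2b, whose product is bound to the alpha subunit by a disulfide bridge and promotes its transport to the surface, had 37.3, 36.7 and 38.7 RPKM with TTX, 22.1, 22.9 and 26.6 RPKM with Bic/4AP and 23.0, 25.4 and 21.3 RPKM in untreated libraries. TTX libraries were all above the others, while Bic/4AP and untreated libraries overlapped. Scn3b, whose product is held without that bridge, had 43.2, 42.7 and 43.3 RPKM with TTX, 50.3, 49.6 and 52.1 RPKM with Bic/4AP and 46.3, 45.1 and 45.4 RPKM in untreated libraries. These 3 ranges were narrow and apart. Scn4b, whose product is linked to resurgent current, was near the lower limit, at 0.466, 0.417 and 0.292 RPKM with TTX, 0.625, 0.462 and 0.434 RPKM with Bic/4AP and 0.544, 0.638 and 0.657 RPKM in untreated libraries. These values rest on 8 to 27 reads per library, against 149 to 4914 reads for the other members, and Scn4b was not tested because fewer than 3 libraries reached 1 RPKM. The plot of levels by library shows these values together.

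**Figure D1:**
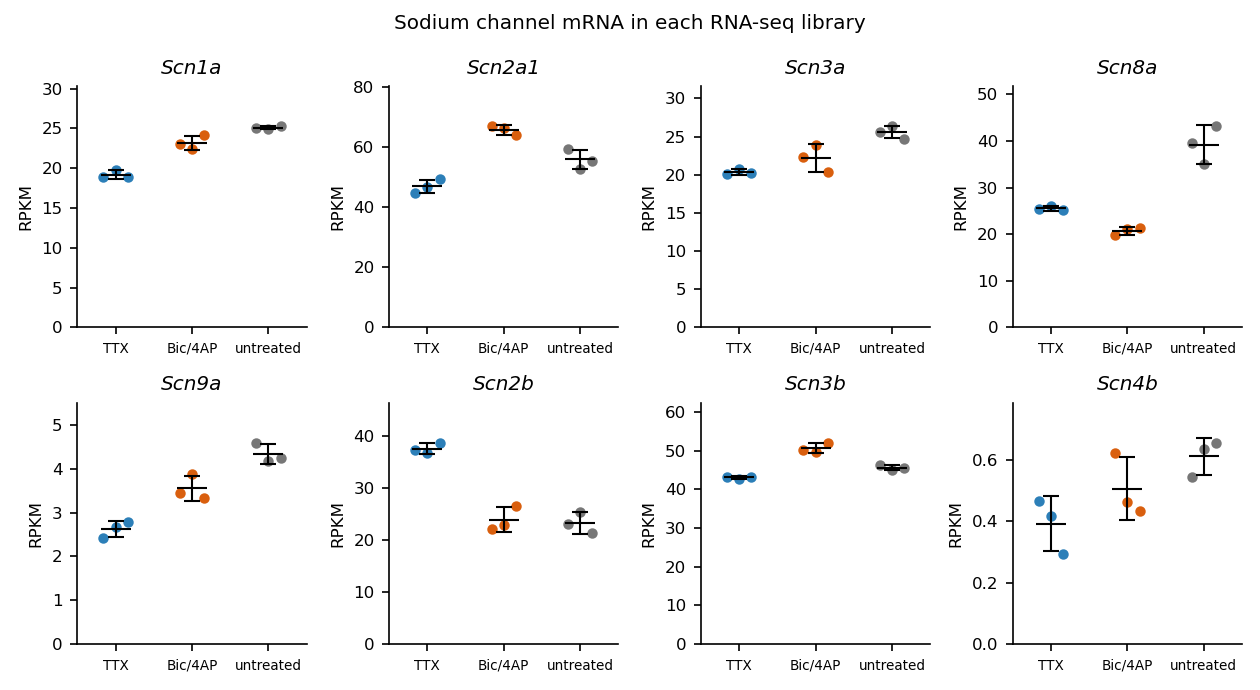
RPKM of each sodium channel gene (vertical axes from 0, scaled per gene) in the 3 TTX, 3 Bic/4AP and 3 untreated libraries; points are libraries and bars the mean and SD. Scn8a sits below its untreated libraries in both treated groups, and Scn2b is raised in the TTX libraries, at 36.7 to 38.7 RPKM.

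The order of levels below Scn2a1 and Scn3b differed by state. With TTX, Scn2b followed at 37.6 ± 1.03 RPKM and Scn8a next at 25.5 ± 0.508 RPKM, and no neighbours in the order overlapped (SD, n = 3 for this and the other levels). With Bic/4AP, Scn2b, Scn1a, Scn3a and Scn8a followed each other between 23.8 ± 2.39 and 20.7 ± 0.856 RPKM, and each overlapped its neighbour. In untreated libraries Scn8a came after Scn3b, at 39.2 ± 4.11 RPKM, and Scn3a, Scn1a and Scn2b followed, where each again overlapped its neighbour. Scn9a and Scn4b were the lowest in every state and did not overlap the gene above.

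TTX against untreated neurons asks how sodium channel mRNA stands when firing is silenced. All 5 alpha genes fell, Scn2b rose and Scn3b did not pass, so 6 of the 7 members tested changed. Of all 14801 genes tested, 64.1% were called in this comparison, 40.6% as higher and 23.5% as lower, so a call by itself is common. TTX and untreated libraries did not overlap for all 7 members tested, as for 69.6% of all genes. The test was limma on log2(RPKM + 1), with Benjamini-Hochberg adjusted p under 0.05, and changes are on that scale. The 5 alpha genes fell by 0.25 to 0.60 on the log2 scale, where the median of all genes was 0.13. Scn8a fell by 0.60 (SE 0.0713, adjusted p = 2.62e-05, limma), and Scn9a by 0.56 (SE 0.130, adjusted p = 0.00269). The order of these 2 depends on the pseudocount: with 0.1 in place of 1, Scn9a fell by 0.71 and Scn8a by 0.61, and the ratio of mean RPKM, TTX over untreated, was 0.604 for Scn9a and 0.651 for Scn8a. Scn1a fell by 0.37 (adjusted p = 0.000104), Scn3a by 0.32 (adjusted p = 0.0011) and Scn2a1 by 0.25 (adjusted p = 0.00268). Scn2b rose by 0.67 (SE 0.0783, adjusted p = 2.19e-05), and Scn3b differed by -0.08 (SE 0.0449, adjusted p = 0.136). These 6 calls held, in the same direction, in every alternative run, but sizes moved: under quantile and loess scaling Scn1a stood at -0.66 and -0.61 and Scn3a at -0.60 and -0.55. Scn3b was also called as lower under quantile, loess and small-RNA-free scaling (-0.13, -0.11 and -0.18).

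Levels and gene lengths matter for reading these changes, because the groups differed in depth and the changes of all genes varied with both. Genes were therefore put into classes by level (10 equal parts) and length (5 equal parts). Among the 278 genes of the class of Scn2a1, the median change with TTX was -0.21, close to the -0.25 of Scn2a1. For Scn8a the median of 369 such genes was -0.03, and 4.07% of them lay below Scn8a. For Scn1a and Scn3a, which share a class of 357 genes, the median was -0.01, and 15.4% and 18.2% of the class lay below them. For Scn9a the median of 273 genes was -0.07, and 24.5% of them lay below Scn9a. For Scn2b the median of 311 genes was 0.09, and 96.1% of them lay below Scn2b.

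Bic/4AP against untreated neurons asks what 3 h of raised firing does to the same genes. Scn8a had the change that held throughout: it fell by 0.88 (SE 0.0713, adjusted p = 4.38e-07, limma), to 20.7 ± 0.856 RPKM with Bic/4AP, against 39.2 ± 4.11 RPKM in untreated libraries. In all, 4 of 7 members were called, 2 as higher and 2 as lower, while 72.1% of all genes tested were called, 29.6% as higher and 42.5% as lower. The groups' libraries did not overlap for 6 of the 7, all but Scn2b, and for 71.3% of all genes. Scn2a1 rose by 0.23 (SE 0.0577, adjusted p = 0.00333) and Scn3b by 0.15 (SE 0.0449, adjusted p = 0.0109), but both directions turned with the scaling: under quantile normalization the changes were -0.16 and -0.15, and under loess -0.17 and -0.15. Genes of the class of Scn2a1 had a median change of 0.35, and those of the class of Scn3b of 0.42, above either gene. Scn3a fell by 0.20 (SE 0.0644, adjusted p = 0.0147), and this call was lost under quantile and loess scaling (adjusted p = 0.0958 and 0.129) and without Bic/4AP library 3 (adjusted p = 0.0641). The 357 genes of its class also had a median change of -0.20, and 50.1% of them lay below Scn3a. Scn1a (-0.11, adjusted p = 0.0858), Scn9a (-0.23, adjusted p = 0.133) and Scn2b (0.03, adjusted p = 0.708) did not pass, and Scn9a stood at 0.45 under quantile normalization, with an adjusted p of 0.00985. Without small RNA genes Scn1a was called as lower (-0.17, adjusted p = 0.0165) and Scn3b was no longer called (0.08, adjusted p = 0.141). Under quantile normalization the members split into 1 higher and 3 lower, and under loess into 0 higher and 3 lower.

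Scn8a lay below most of its class here too: 369 genes of like level and length had a median change of -0.05, and 8.67% lay below Scn8a. The comparison uses the same untreated libraries as the one with TTX, so the falls of Scn8a in both are not independent. Nalcn, which encodes the sodium leak channel and is not voltage-gated in the usual sense, had 28.1, 29.7 and 29.8 RPKM with TTX, 37.8, 36.2 and 37.9 RPKM with Bic/4AP and 28.3, 29.1 and 26.7 RPKM untreated. It rose with Bic/4AP by 0.40 (adjusted p = 2.56e-05, limma) and did not pass with TTX (0.06, adjusted p = 0.369). Whether the rise of Nalcn holds under the other scalings or exceeds that of genes of like level and length was not examined. The tetrodotoxin-resistant alpha genes Scn10a and Scn11a, with the muscle gene Scn4a and the glial Scn7a, reached at most 0.743 RPKM in any library, in Scn7a, and were not tested.

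**Figure D2:**
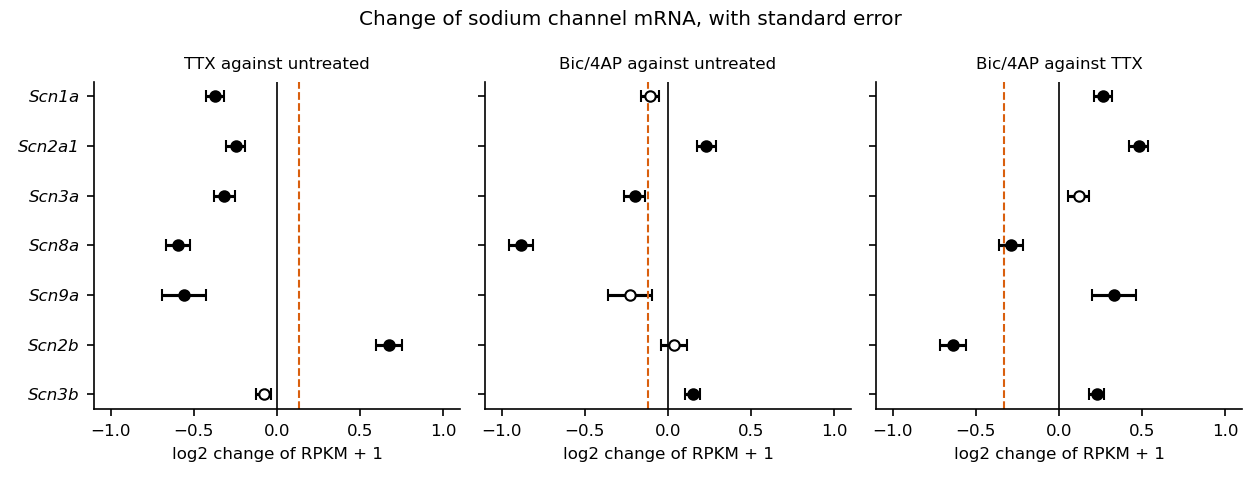
Log2 change of RPKM + 1 (horizontal axis) with its standard error for the 7 tested members in the 3 comparisons; filled points passed the test, and the dashed line is the median of all genes tested. With TTX the 5 alpha genes lie left of 0 and Scn2b right of it; with Bic/4AP Scn8a lies farthest left, at -0.88.

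Bic/4AP against TTX sets the 2 treated states side by side. Of 7 members 6 were called, 4 as higher and 2 as lower, while 76.8% of all genes tested were called, 23.7% as higher and 53.1% as lower. The groups' libraries did not overlap for 6 of the 7, all but Scn3a, and for 81.5% of all genes. Classes of like level and length had median changes of 0.52 for Scn2a1, 0.54 for Scn3b and -0.12 for Scn8a. The class medians were -0.27 for Scn1a and Scn3a, -0.52 for Scn9a and -0.21 for Scn2b. Scn2b fell by 0.64 (SE 0.0783, adjusted p = 1.21e-05, limma) and Scn1a rose by 0.26 (SE 0.0540, adjusted p = 0.000806). These 2 calls held in every alternative run, with Scn1a at 0.62 under quantile and 0.60 under loess scaling. Scn2a1 rose by 0.48 (adjusted p = 1.03e-05), and under loess scaling its change was 0.06 (adjusted p = 0.125). Scn3b rose by 0.23 (adjusted p = 0.000573), but its change was -0.01 under quantile normalization and -0.04 under loess. Scn8a fell by 0.29 (adjusted p = 0.00284), and this was 0.03 under quantile normalization and -0.12 under loess (adjusted p = 0.227). Scn9a rose by 0.33 (adjusted p = 0.0357), and the call was lost without TTX library 1 or 2 or Bic/4AP library 1 or 2 (adjusted p = 0.112, 0.087, 0.0666 and 0.119), while the change was 0.91 under quantile and 0.97 under loess scaling. Scn3a did not pass (0.12, adjusted p = 0.116), but was called as higher under quantile (0.49, adjusted p = 1.59e-05) and loess scaling (0.45, adjusted p = 4.2e-05), without small RNA genes (0.15, adjusted p = 0.0492) and without Bic/4AP library 3 (0.18, adjusted p = 0.024).

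The make-up of the alpha pool differed between the states. The 5 alpha genes summed to 111 to 116 RPKM in TTX libraries, 133 to 138 RPKM in Bic/4AP libraries and 143 to 154 RPKM in untreated libraries, so the 3 groups did not overlap. Scn2a1 made up 40.9% ± 1.31 of that sum with TTX, 48.5% ± 0.748 with Bic/4AP and 37.2% ± 1.12 untreated. Scn8a made up 22.3% ± 0.641 with TTX, 15.3% ± 0.726 with Bic/4AP and 26.1% ± 1.95 untreated. In the values as deposited, Scn1a and Scn3a had shares between 15.3% and 18.4% in all 9 libraries. Their shares after quantile normalization were not computed, so this evenness is stated for the deposited scaling only. After quantile normalization the share of Scn2a1 was 46.7% with TTX, 41.3% with Bic/4AP and 38.6% untreated, so the order of TTX and Bic/4AP turned. That of Scn8a was then 20.7% with TTX, 17.4% with Bic/4AP and 26.4% untreated. The level of Scn2a1 over that of Scn8a was 1.84 ± 0.112 with TTX, 3.17 ± 0.198 with Bic/4AP and 1.43 ± 0.126 untreated. After quantile normalization this ratio was 2.25 ± 0.037 with TTX, 2.38 ± 0.133 with Bic/4AP and 1.48 ± 0.183 untreated. The TTX and Bic/4AP libraries then overlapped, as the lowest Bic/4AP library had 2.24 and the highest TTX library 2.30. Scn2b over Scn8a was 1.47 ± 0.0685 with TTX, 1.15 ± 0.0845 with Bic/4AP and 0.601 ± 0.119 untreated. The 3 beta members together stood at 0.708 ± 0.0188 of the alpha sum with TTX, 0.554 ± 0.0346 with Bic/4AP and 0.464 ± 0.0296 untreated. Neither this ratio nor that of Scn2b over Scn8a was examined under other scalings.

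**Figure D3:**
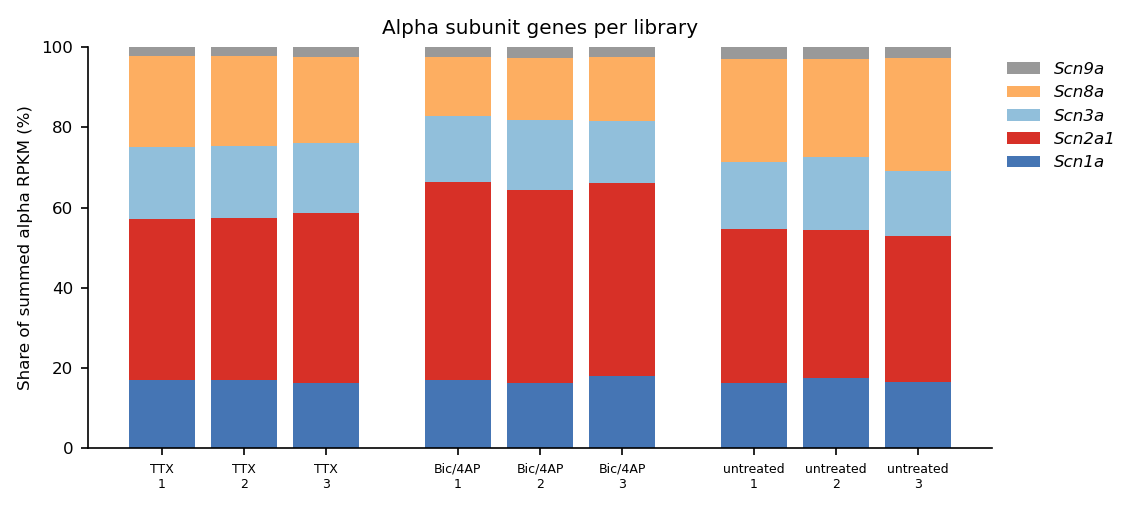
Share of each alpha gene in the summed alpha RPKM (percent, vertical axis) in each of the 9 libraries. Scn8a takes 15.3% on average in the Bic/4AP libraries and 24.4% to 28.2% in the untreated ones, and Scn2a1 takes 48.1% to 49.4% in the Bic/4AP libraries.

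Sodium channels are held at the axon initial segment by ankyrin G (Ank3), beta-IV spectrin (Sptbn4), neurofascin (Nfasc) and related proteins. Of 18 such partner genes tested, 3 rose and 9 fell with TTX against untreated, and the list's median change was -0.17 where that of all genes was 0.13. The share of the list called was near the 64.1% of all genes, of which 40.6% rose and 23.5% fell. Sptbn4 fell by 2.02, to 11.1 RPKM with TTX against 48.6 RPKM untreated (adjusted p = 2.69e-07, limma). Nfasc fell by 0.45 (adjusted p = 0.000339) and Ank3 by 0.34 (adjusted p = 0.000933). Cntn2, an axonal adhesion molecule, rose by 1.06 (adjusted p = 7.09e-06), L1cam by 0.33 (adjusted p = 0.000401) and Mapre3 by 0.14 (adjusted p = 0.033), the last not called without small RNA genes (adjusted p = 0.553). With Bic/4AP against untreated 6 rose and 8 fell, whereas 1 rose and 12 fell under quantile and 1 rose and 13 fell under loess scaling; of all genes 72.1% were called, 29.6% as higher and 42.5% as lower. Sptbn4 stood at 2.67 RPKM with Bic/4AP and fell by 3.74 (adjusted p = 1.63e-09), Nfasc fell by 1.15 (adjusted p = 1.12e-07) and Cntnap1 fell by 1.01 (adjusted p = 2.02e-06). These 3 calls were kept under quantile and loess scaling. The calls of Csnk2b, Csnk2a1, Cntn1 and L1cam as higher were the 4 of smallest p, and those of Csnk2a1, Cntn1 and L1cam were lost under quantile scaling.

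Proteins that modify sodium channels or their transcripts formed the other list, of 32 genes tested. With TTX, 8 rose and 15 fell against untreated, with a median change of -0.14, where 40.6% of all genes rose and 23.5% fell. Among those that fell were Fgf14 (-0.40, adjusted p = 0.00012, limma) and Fgf12 (-0.30, adjusted p = 0.000253), intracellular FGF homologous factors that bind the channel's tail, and Rbfox1 (-0.39, adjusted p = 0.000539) and Ptbp2 (-0.33, adjusted p = 0.000656), splicing regulators. Bace1, the protease that cleaves beta subunits, rose by 0.45 (adjusted p = 0.000111), as did Gpd1l (0.30, adjusted p = 0.000235), Nova2 (0.37, adjusted p = 0.00303) and Rangrf (0.74, adjusted p = 0.0103), of which Nova2 lost its call under loess scaling (adjusted p = 0.0564). With Bic/4AP, 18 rose and 5 fell, but 12 rose and 12 fell under quantile and 8 rose and 15 fell under loess scaling, so the direction of this list rests on the scaling. The share of the list called, in either direction, was near that of all genes in this comparison (72.1%). Camk2d (0.60, adjusted p = 7.77e-07), Fgf12 (0.57, adjusted p = 8.56e-07) and Gpd1l (0.49, adjusted p = 2.55e-06) rose and kept their calls under all 4 other scalings, as did the falls of Pacsin2 (-1.09, adjusted p = 1.6e-06), Mapk14 (-0.67, adjusted p = 3.7e-06) and the ubiquitin ligase gene Nedd4l (-0.52, adjusted p = 5.47e-06).

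Across the 9 libraries, the 2 genes of 5 RPKM or more whose log2 levels followed each member most closely were ranked by Pearson's r among 10979 genes. For Scn8a they were Slit1 (r = 0.999) and Nav2 (r = 0.998), for Scn2a1 Gnaq (0.994) and Dync1i2 (0.993), and for Scn1a Acap2 (0.994) and A330076H08Rik (0.980). For Scn2b they were Pgm2 (0.996) and Dap3 (0.992), for Scn3b Dnajb9 (0.994) and Idi1 (0.994), for Scn3a Mmp16 (0.964) and Scarna10 (0.955), and for Scn9a Inpp4a (0.988) and Nrxn3 (0.970). With 3 treatments these coefficients mainly describe the order of the group means, and the TTX libraries, like the Bic/4AP libraries, were also close to each other in depth.

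At the chromatin level, H3K27ac peaks were counted over each gene with 10 kb on each side, in mm10 coordinates. The lists differ in depth of calling: list 1 held 7721 peaks with Bic/4AP and 4846 untreated, and list 2, labelled as the repeat, 55035 with Bic/4AP and 49701 untreated. With 2 lists a group an exact test cannot go below p = 0.333, so none was made. Scn2a1 (chr2:65620764-65767447) held 5 and 21 peaks in the Bic/4AP lists and 3 and 12 in the untreated lists, the most of the 8 genes except in untreated list 1, where Scn8a had as many. Scn8a (chr15:100869863-101045938) held 3 and 11 with Bic/4AP and 3 and 8 untreated, and Scn1a (chr2:66270781-66440837) 1 and 7 with Bic/4AP and 1 and 1 untreated. Peaks at Scn3a, Scn9a, Scn2b and Scn3b numbered 0 to 6 a list, and Scn4b held none in any.

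Coverage in bases was highest at Scn2a1 in 3 of the 4 lists, and at Scn8a in untreated list 1. In list 2 peaks covered 68611 bases at Scn2a1 with Bic/4AP against 19854 untreated, a ratio of 3.46, and in list 1 7211 with Bic/4AP against 1438 untreated, a ratio of 5.01. At Scn1a they covered 12144 bases with Bic/4AP against 2248 untreated in list 2 (ratio 5.40) and 1948 with Bic/4AP against 416 untreated in list 1 (ratio 4.68). For comparison, over 9623 protein-coding genes with peaks in both lists 2 the median ratio was 1.39, and 12.1% of them had the ratio of Scn2a1 or more and 4.87% that of Scn1a or more; in lists 1 the median over 3223 genes was 2.56, and the shares were 14.9% and 17.3%. At Scn8a, whose mRNA fell with Bic/4AP, coverage was 24854 bases with Bic/4AP against 12537 untreated in list 2 (ratio 1.98) and 4550 with Bic/4AP against 1699 untreated in list 1 (ratio 2.68). The share of all genes with that ratio or more was 31.0% in lists 2 and 47.0% in lists 1. Scn3a, Scn9a and Scn2b had ratios of 0.871, 0.690 and 0.725 in list 2. The shares of genes with that ratio or more were 76.4%, 84.2% and 82.5%. In list 1 Scn2b had 1.12, and 93.1% of genes had that ratio or more, so it was low for its list in both. Scn3a had 629 bases with Bic/4AP and 0 untreated in list 1, the other direction from list 2, and Scn9a had 0 in both states. Scn3b had 2.51 in list 2, and 21.8% of genes had that ratio or more. Of its 10880 bases with Bic/4AP, peaks of 3639 and 2456 bases lay in the neighbouring gene Gramd1b. Of its 4338 untreated bases, 875 lay there, so the ratio of Scn3b rests largely on Gramd1b. Peak coverage also depends on how many peaks each list holds, and its relation to the mRNA was not tested.

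**Figure D4:**
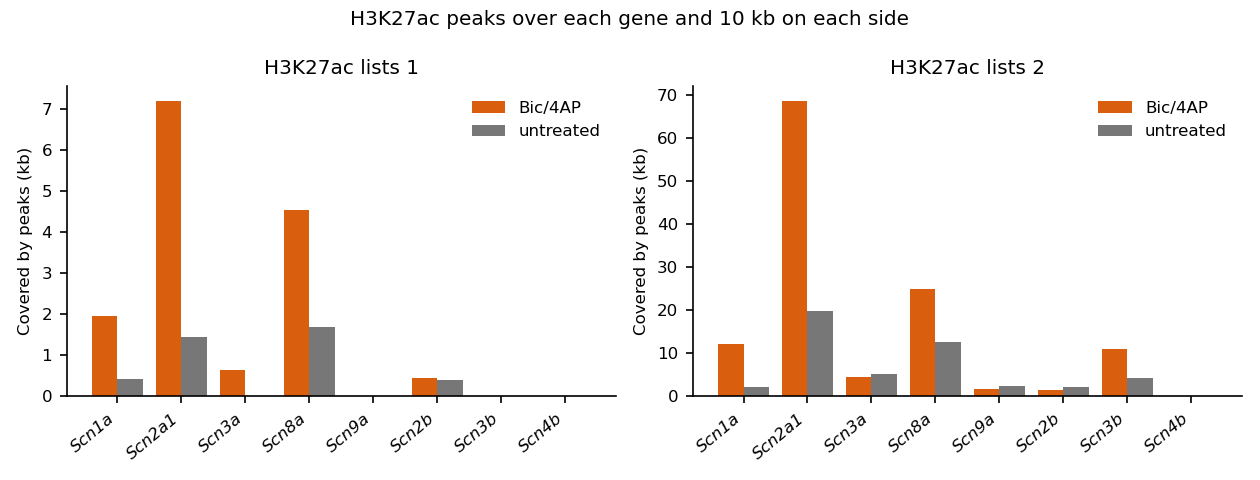
Kilobases covered by H3K27ac peaks over each gene with 10 kb on each side (vertical axes, different scales), Bic/4AP and untreated, in lists 1 (left) and lists 2 (right). Scn2a1 has the most coverage in 3 of the 4 lists, Scn8a in untreated list 1, and Scn4b has none.

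Where the peaks lay differed by gene. Peaks within 1 kb of start 1 of Scn2a1 were in all 4 lists, with the authors' peak scores of 219 and 2761 with Bic/4AP and 72.8 and 1457 untreated. Start 2 had peaks in both Bic/4AP lists (96.4 and 3100) and in untreated list 2 (1069). Scn8a start 1 had peaks in all 4 lists (87.1 and 1924 with Bic/4AP, 76.7 and 1380 untreated), and its start 2 in none. The start of Scn2b was also marked in all 4 (81.3 and 308 with Bic/4AP, 78.0 and 736 untreated). No list held a peak within 1 kb of the starts of Scn1a, Scn9a and Scn4b in the promoter table, which holds 6 of the 8 members and neither Scn3a nor Scn3b. For these 2, peaks were counted within 1 kb of the ends of the gene: Scn3a had a peak at its higher coordinate, 65567591 on chromosome 2, in both Bic/4AP lists (103 and 1909) and in untreated list 2 (910), and Scn3b at its lower coordinate, 40269216 on chromosome 9, in Bic/4AP list 2 (815) and untreated list 2 (896). At Scn1a the peak shared by all lists lay inside the gene, at chr2:66408144-66410091 in Bic/4AP list 1, with scores of 176 and 2102 with Bic/4AP and 68.0 and 572 untreated. At Scn8a, peaks inside the gene at chr15:100909699-100911277 and chr15:100922561-100924779 (Bic/4AP list 1) were overlapped by peaks in the other 3 lists, and the peak nearer the end of the gene lies within 1 kb of the start of Gm52176. H3K4me1 peaks in untreated neurons numbered 5 and 3 at Scn8a, 0 and 2 at Scn1a, 2 and 0 each at Scn3a and Scn3b, and none at the other members.

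Methylation differed far more between starts than between treatments. Values are means of the authors' CpG fractions over CpGs listed in all 3 libraries within 1 kb of a start, with 1 library a treatment and no test. Scn8a start 1 stood at 0.0433 with TTX, 0.0434 with Bic/4AP and 0.0379 untreated (122 CpGs), and its start 2 at 0.691 with TTX, 0.629 with Bic/4AP and 0.623 untreated (48 CpGs). The unmarked start of Scn4b had 0.0363 with TTX, 0.0443 with Bic/4AP and 0.0508 untreated (95 CpGs). Scn2b had 0.0656 with TTX, 0.126 with Bic/4AP and 0.107 untreated (23 CpGs). At Scn2a1, start 1 had 0.356 with TTX, 0.324 with Bic/4AP and 0.267 untreated (14 CpGs), and start 2 had 0.234 with TTX, 0.216 with Bic/4AP and 0.235 untreated (22 CpGs). With few CpGs and unknown coverage these differences cannot be set against an error. The starts of Scn1a and Scn9a lay between 0.124 and 0.227 in the 3 libraries, where the median over the starts of all genes was 0.173 with TTX, 0.173 with Bic/4AP and 0.174 untreated. Over whole genes, Scn1a, Scn2a1, Scn3a and Scn9a lay between 0.801 and 0.845 and Scn4b between 0.430 and 0.442, and in each of the 8 genes the 3 libraries were within 0.02 of each other.

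**Figure D5:**
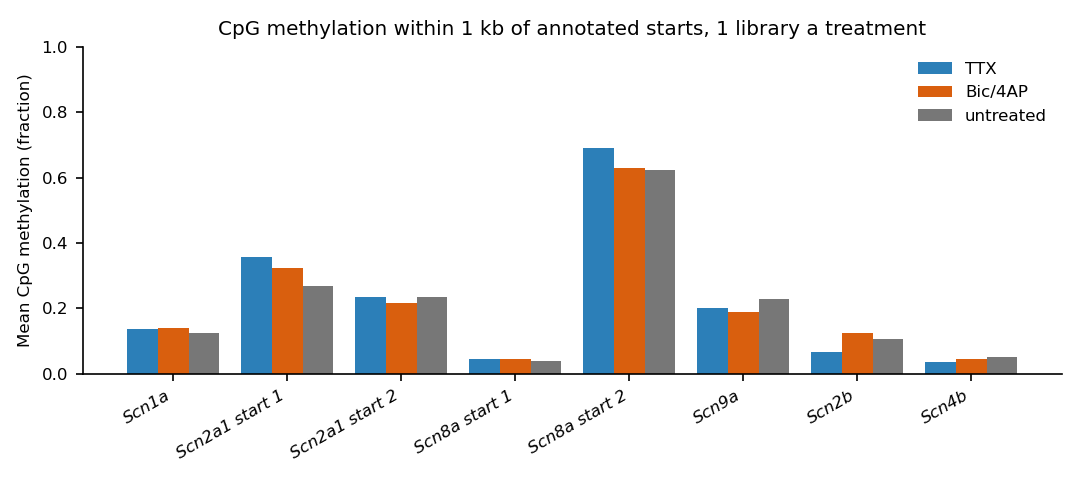
Mean CpG methylation (fraction, vertical axis from 0 to 1) within 1 kb of 8 annotated starts in the TTX, Bic/4AP and untreated library, 1 each. Scn8a start 1 and Scn4b lie under 0.06 in all 3 libraries, and Scn8a start 2 lies above 0.6.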

How the data were processed

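Per the labels, RNA was selected by poly(A) and libraries used a directional kit; the use of strand in counting is not stated in the sources used here. The authors deposited RPKM per gene. Per the submitters' processing notes, the build was mm10 and the tools named are MACS 1.4.1, Bowtie2 2.2.4, TopHat and SAMtools 0.1.19. The deposited peak lists hold the authors' score per peak, and the deposited methylation files a fraction per CpG without coverage, so its depth is unknown. Peak starts were read as counted from 0. Whole reads recovered from RPKM (19588 of 19588 genes within 0.03 of a read) gave library sizes; they were used for depth and for 1 alternative, a saturation correction chosen after seeing the data. Handling of duplicate reads is not stated in the sources used here.

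Genes at 1 RPKM or more in 3 or more libraries (14801) were tested with limma 3.58.1 (R 4.3.3, trend) on log2(RPKM + 1), all 9 libraries in 1 fit, with Benjamini-Hochberg adjustment over all of them. The procedure was tested on simulated data. The 4 lines with a repeated name were dropped. Members and gene lists were chosen with earlier results of these data known. Members are always named, and of the partner and modifier lists up to 4 genes a direction by p. Figures used matplotlib 3.10.9. RefSeq gene positions and sequences are of GRCm38.p6, and 1 input sample was not used here. Some sodium channel genes and list genes that this rule would name are not reported here.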

Additional observations from a re-analysis of the deposited data

How the results depend on the processing

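The count of members called was 6 to 7 with TTX against untreated, 3 to 4 with Bic/4AP against untreated and 4 to 7 with Bic/4AP against TTX over all alternatives (pseudocount, filter, scaling, block, saturation correction, 2 groups alone and each library left out). Scalings that align whole distributions moved the Bic/4AP comparisons most. Against untreated, quantile normalization gave -0.16 for Scn2a1, 0.45 for Scn9a and -0.15 for Scn3b, and loess -0.17, 0.24 and -0.15, each opposite to the value reported. Scn2b, not called, stood at -0.029 without small RNA genes, and between -0.043 and 0.099 with single libraries left out, below 0 without untreated library 3 and without Bic/4AP library 3. Against TTX, quantile normalization gave 0.030 for Scn8a and -0.013 for Scn3b, and loess -0.041 for Scn3b. The cause was not tested.

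The replicate block called 6, 4 and 5 members in the 3 comparisons in the order above. It ended the call of Scn9a between Bic/4AP and TTX (adjusted p = 0.0653) and no other. The labels state no pairing of the libraries. Deviations of same-numbered libraries correlated between -0.17 and 0.04, which cannot decide whether they shared a culture.

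With peaks of score 100 or more, the 8 loci held 5 H3K27ac peaks in Bic/4AP list 1 (11 in all), 0 in untreated list 1 (8 in all) and 20 in untreated list 2 (35 in all), and with 50 kb on each side the last held 55. The mean methylation over start windows within 500 bases was 0.197 with TTX, 0.177 with Bic/4AP and 0.185 untreated, and with all CpGs a library lists it was 0.234 with Bic/4AP and 0.222 untreated; over genes it was 0.720 with TTX. The values within 1 kb over shared CpGs were 0.220 with TTX, 0.214 with Bic/4AP and 0.209 untreated, and 0.715 over genes with TTX. Depth limits Scn4b to 8 to 27 reads a library, an exact test on 2 peak lists a group cannot go below p = 0.333 and was not made, and 1 methylation library a treatment allows no test.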

Other observations

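Untreated library 2, the deepest of its group, lay nearest to the TTX mean of the 3 untreated libraries for 6 of the 8 members and for 59.5% of all genes tested. Without it, 6 members were still called with TTX and 4 with Bic/4AP against untreated.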
